A study of Homo sapiens with 4 samples.

Results

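MT-RNR2 is the gene for the 16S rRNA of the large subunit of the human mitochondrial ribosome. It was taken from the heavy-strand values at MT:1671-3228 in the files' own numbering, 1558 positions, and is 1 of 28 genes measured on that strand and 1 of 37 mitochondrial genes. Its sequence holds 944 positions with A or C, the bases that dimethyl sulfate (DMS) methylates where they are unpaired, and 270 G and 344 T. Of the A and C positions, 774 were tested, 165 had a mean mismatch below 0.2% over the 4 libraries, and 5 lay above 30% and are described apart. The 16S number given beside some positions counts from 1 at the 5′ end of the rRNA.

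The study exposed mitochondria of HEK-293T, a line derived from human embryonic kidney, to 1% DMS for 5 min at 37 °C, and made cDNA with a reverse transcriptase that leaves a mismatch at a methylated base. There were 2 wild-type (WT) libraries and 2 libraries of cells with a knockout (KO) of LRPPRC, an RNA-binding protein of mitochondria, in each case bioreplicates 1 and 2. All 4 libraries were DMS-treated, no library without DMS was analysed here, and the labels do not say whether the knockout is 1 clone. The files cover mitochondrial positions alone, so neither markers of the cell line nor the LRPPRC transcript could be read, and they give no counts, so the depth is unknown.

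The 16S rRNA folds into domains around the peptidyl transferase centre, where amino acids are joined. Its P loop and A loop hold the ends of the peptidyl and aminoacyl tRNAs, helix 69 reaches across to the small subunit, and the sarcin-ricin loop contacts the GTPases of translation. Some bases carry native modifications, among them a 1-methyladenosine (m1A), whose methyl group sits on the pairing face and leaves mismatches in cDNA without any DMS. LRPPRC is best known for binding mitochondrial mRNAs.

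The 7 stretches below are shown because they differ in how far the KO libraries lie from WT. They are read 5′ to 3′ from the base column of the files on the strand of the rRNA, with T for U. Of these, 6 were located by short conserved motifs, and the stretch around the m1A by the A with the highest mismatch between helix 69 and domain V, whose 16S number, 947, is that of the known m1A. Capitals mark the loop of each hairpin, the m1A, or the conserved core of the other elements.
helix 69, MT:2572-2585: cggtACCCTAaccg
around the m1A, MT:2603-2625: cacttgttccttaaAtagggacc
P loop, MT:2810-2822: ggtTGGGGCGacc
peptidyl transferase ring, first strand, MT:2928-2946: cctaggGATAACAgcgcaa
peptidyl transferase ring, second strand, MT:2985-2998: cctcgATGTtggat
A loop, MT:3036-3046: gttTGTTCaac
sarcin-ricin loop, MT:3118-3136: ccctGTACGAAAGGACaag

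Across the whole rRNA the KO libraries had less mismatch signal. The mean at the 774 tested positions was 2.37% and 2.38% in the WT libraries, against 1.86% and 1.93% in the KO libraries. The groups did not overlap, and the difference was -0.479 percentage points, from 2.38% ± 0.0108 (SD, n = 2) to 1.90% ± 0.0484 (n = 2; two-sided exact permutation p = 0.333, which no design of 2 against 2 can go below). Tested A positions averaged 2.13% ± 0.0255 in WT and 1.61% ± 0.0198 in KO, and tested C positions 2.74% ± 0.0108 and 2.31% ± 0.0906.

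G and T, which DMS does not mark at the pairing face, served as the background. They averaged 0.286% ± 0.0176 in WT and 0.249% ± 0.00366 in KO. Dividing the A and C mean by this background gave 6.65 and 7.29 for the WT libraries and 6.30 and 6.39 for the KO libraries. The difference of -0.625 was -0.301 without WT replicate 2 and -0.948 without WT replicate 1, and at C positions alone it was -0.278 with overlapping libraries (exact permutation p = 0.667). The same quotient was 5.17 ± 0.277 (WT) and 4.45 ± 0.0686 (KO) for MT-RNR1, the rRNA of the small subunit.

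MT-RNR2 ranked 13 of the 14 rRNAs and mRNAs in both groups. Below it lay MT-RNR1, at 1.73% ± 0.00260 in WT and 1.31% ± 0.0283 in KO. Above it in WT was COX1 at 3.22% ± 0.0280, a gap far wider than either SD. Above it in KO was ND4 at 1.94% ± 0.00985, which differed from MT-RNR2 by less than the SD of the MT-RNR2 libraries. Positions under 0.2% made up 17.5% of the A and C of MT-RNR2 and 1.74% of those elsewhere on the strand.

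The direction of the change of the whole gene depended on the scaling. As a mean of log2(fraction + 0.001) it was -0.47 without centring (SE 0.0522, limma adjusted p 0.000514) and 0.16 with each library centred on its median over the strand (SE 0.0498, adjusted p 0.0360); that median itself moved by -0.63. Uncentred, 78.6% of the 28 genes passed an adjusted p of 0.05, 71.4% lower and 7.14% higher, and centred 82.1% passed, 78.6% higher and 3.57% lower, so MT-RNR2 moved with most genes under both. Without KO replicate 1 or 2 the centred change no longer passed (0.145 and 0.171, adjusted p 0.429 and 0.340), and at A positions alone it was -0.01 (adjusted p 0.856).

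Within a library, where no scaling enters, MT-RNR2 lay above MT-RNR1 by 0.41 ± 0.0149 on the log2 scale in WT and 0.33 ± 0.0291 in KO. Relative to the mRNAs it stood at -1.10 ± 0.00106 in WT and -1.02 ± 0.0155 in KO, so the gap was 0.09 smaller in KO. This difference was 0.03 with a pseudocount of 0.0001, 0.18 with a pseudocount of 0.01 and 0.28 at C positions alone. At A positions alone it had the opposite sign (-0.10). Genes were also compared by the distance between their log2 profiles over the 4 libraries, without library centring and with each gene's own mean subtracted. This distance compares the changes between libraries and not the levels. Among the rRNAs and mRNAs, those that changed most like MT-RNR2 were CYTB (0.0172), ND3 (0.0184) and ND1 (0.0268).

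The signal was also shared more unequally among the positions in KO. The Gini index, which is higher when few positions hold most of the signal, was 0.552 and 0.558 in WT and 0.604 and 0.622 in KO, a rise of 0.0578 (SE 0.00823, limma adjusted p 0.0148). For this index 53.6% of genes passed, 10.7% with a rise and 42.9% with a fall. The rise remained but did not pass without WT replicate 1 (adjusted p 0.0678), WT replicate 2 (0.0594) or KO replicate 1 (0.0516). The highest 39 positions of each library held 28.1% and 28.2% of the summed signal in WT, against 32.6% and 34.5% in KO. In MT-RNR1 the index changed by 0.0106 (adjusted p 0.270); whether the rRNAs differ in this was not tested.

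The low end of the distribution differed most in relative terms. The 10th percentile was 0.350% ± 0.0141 in WT and 0.211% ± 0.0179 in KO, and the median 1.28% ± 0.00601 and 0.883% ± 0.00424. At the 95th percentile the values were 7.25% ± 0.133 and 6.78% ± 0.143.

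**Figure D1:**
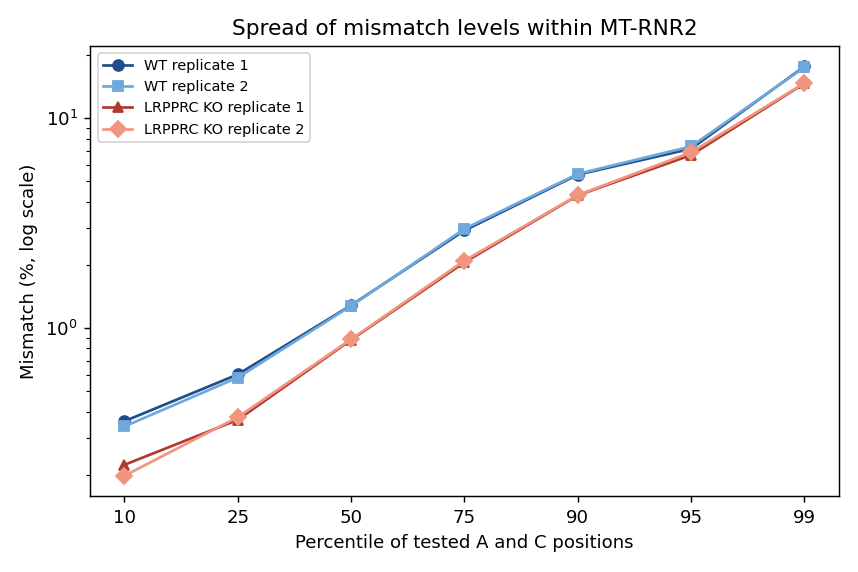
Mismatch (percent, log axis) at 7 percentiles of the 774 tested A and C positions of MT-RNR2, 1 line per library. Both KO lines lie below both WT lines at every percentile shown, and come closest to them at the 95th, 6.78% against 7.25% on average.

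Along the molecule the difference was uneven. The rRNA was split at the motifs and by the spacing known from bacterial rRNA into the 5′ part before helix 69 (1671 to 2571), helix 69 to the start of domain V (2572 to 2705), domain V (2706 to 3112) and domain VI (3113 to 3228); these borders are approximate. The stretch from helix 69 to domain V, with 46 tested positions, had 1.74% and 1.72% in WT, against 0.982% and 1.19% in KO. Relative to the whole rRNA of the same library its log2 level was -0.08 ± 0.0160 in WT and -0.54 ± 0.148 in KO. This difference of -0.46 was -0.23 at A positions alone, -0.81 at C positions alone and -0.20 with a pseudocount of 0.01. Domain V, with 201 tested positions, had 2.76% and 2.70% in WT, against 2.41% and 2.70% in KO, so the libraries overlapped.

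Domains V and VI stood higher relative to the whole rRNA in KO, and the 5′ part slightly lower. The relative log2 level of domain V was 0.24 ± 0.0320 in WT and 0.39 ± 0.0385 in KO, and that of domain VI -0.10 ± 0.0554 and 0.17 ± 0.0943. The 5′ part averaged 2.36% ± 0.0244 in WT and 1.74% ± 0.0356 in KO, with relative levels of -0.08 ± 0.00441 and -0.14 ± 0.0451; that difference ran from -0.0873 without KO replicate 1 to -0.0236 without KO replicate 2. For each of the 4 regions the relative levels of the groups did not overlap (exact permutation p = 0.333).

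In 50-nt windows, 24 of the 30 windows of the rRNA had a lower A and C mean in KO, and 22 a lower G and T mean. After centring, limma called 21 of the 30 windows, where 87.9% of all windows on the strand were called. Of these, 16 were higher and 5 lower, against 60.3% and 27.6% of all windows. Uncentred it called 23, with 22 lower and 1 higher, where 92.4% of all windows were called, 90.3% lower and 2.12% higher. Without WT replicate 1 or without WT replicate 2 the 5 lower windows became 3, and without KO replicate 1 they became 9.

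The window that fell most was 2951 to 3000 in domain V, which holds the second strand of the peptidyl transferase ring. Its A and C mean was 2.38% and 2.40% in WT, against 0.702% and 0.479% in KO, a centred log2 change of -1.04 (SE 0.16, limma adjusted p 0.000808) and -1.67 uncentred. Its G and T mean was lower as well, at 0.210% ± 0.0111 in WT and 0.0812% ± 0.0180 in KO.

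The next windows were 2901 to 2950, with the first strand of the ring, and 2551 to 2600, with helix 69. The former had 1.52% and 1.64% in WT, against 0.633% and 0.580% in KO (centred change -0.81, SE 0.07, limma adjusted p 5.65e-05). The latter had 1.91% and 1.99%, against 0.808% and 0.849% (centred change -0.73, SE 0.07, adjusted p 7.80e-05). In the window with helix 69 the G and T means were 0.304% and 0.297% in WT, against 0.149% and 0.145% in KO. In 2901 to 2950 the G and T means did not separate, at 0.285% ± 0.0212 and 0.285% ± 0.0104; a T at 2908 in it stood at 0.621% ± 0.103 in WT and 1.59% ± 0.0750 in KO.

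The window that rose most was 3051 to 3100 of domain V. It had 2.12% and 1.75% at A and C in WT, against 2.66% and 3.54% in KO, a centred change of 0.93 (SE 0.09, limma adjusted p 7.27e-05) and 0.30 uncentred (adjusted p 0.0162). Its G and T mean was 0.287% ± 0.0278 in WT and 0.419% ± 0.0285 in KO. The windows 3001 to 3050 and 2851 to 2900 followed, with centred changes of 0.68 and 0.65, but of 0.05 and 0.02 uncentred, neither of which passed (adjusted p 0.555 and 0.692).

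**Figure D2:**
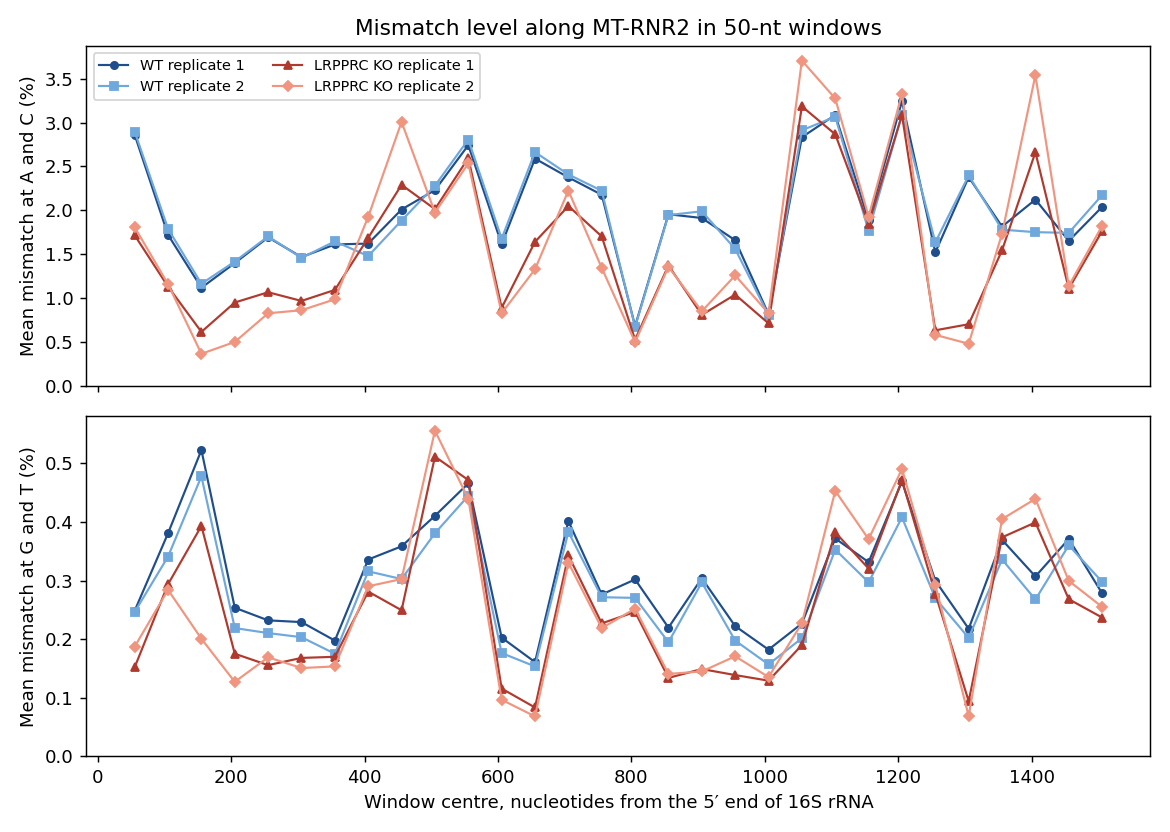
Mean mismatch (percent) in the 30 windows of 50 nt, at A and C (top) and at G and T (bottom), against the distance of the window centre from the 5′ end of the rRNA; 1 line per library. In the window 2951 to 3000 (16S numbers 1281 to 1330) the KO lines drop to 0.591% at A and C and 0.0812% at G and T on average, and the highest KO values at A and C are 3.18% and 3.71%, in the window that starts at 16S number 1031.

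Because the background differed too, the A and C mean of each window was also divided by its G and T mean, a step added after these values were seen. Across the 30 windows the log2 ratio of KO to WT at A and C and that at G and T had a Pearson's r of 0.762 and a Spearman's rho of 0.733. Windows share libraries and reads, so this is a description, and over the other 299 windows of the strand r was -0.114. On the divided values limma called 18 of the 30 windows, 15 lower and 3 higher in KO, where 83% of all windows were called, 79.6% lower and 3.34% higher. Without WT replicate 2 or without KO replicate 2 it called 10. For these values limma took the spread wholly from all windows of the strand, whose median SE from a window's own libraries is 0.0489 against 0.0946 in MT-RNR2. Judged by each window's own libraries, 5 of the 30 passed, and 219 of the 329 on the strand.

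The log2 change of the divided value was lowest in 2901 to 2950, at -1.38 (SE 0.16 from its own libraries), and highest in 2101 to 2150 of the 5′ part, at 0.69 (SE 0.09). In 2951 to 3000 it was -0.65 (SE 0.08). In 2551 to 2600, the window of helix 69, it was -0.20 (SE 0.07), where the undivided A and C means had a log2 ratio of -1.23 and the G and T means one of -1.03. The window 2901 to 2950 joins unlike backgrounds. In 2896 to 2920, which overlaps its start, KO was at 1.71 of WT at G and T and 0.494 at A and C. In 2921 to 2945 KO was at 0.236 of WT at G and T and 0.211 at A and C.

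**Figure D3:**
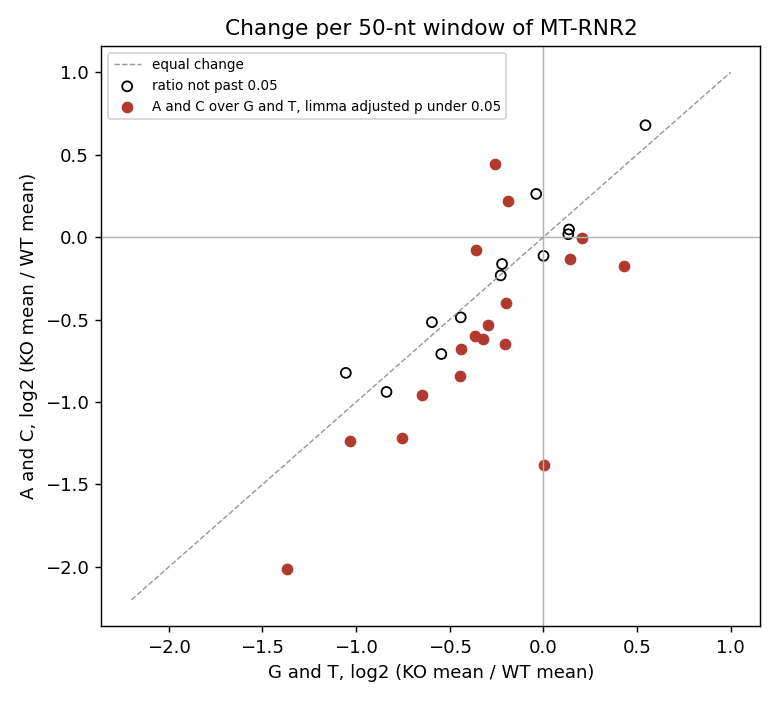
Log2 ratio of the KO mean to the WT mean at A and C (vertical) against the same ratio at G and T (horizontal), 1 point per 50-nt window of MT-RNR2; the dashed line marks equal change. Filled points are the 18 windows whose A and C mean over G and T mean passed an adjusted p of 0.05 with the spread taken from all windows, and the lowest point is 2951 to 3000, at -2.02 for A and C and -1.37 for G and T.

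At a finer grain the rRNA was read in 63 bins of 25 nt, also after these values were seen and with no test. In 6 bins both the A and C mean and the G and T mean of KO were at 0.5 or less of WT: 2271 to 2295, 2571 to 2595, 2596 to 2620, 2921 to 2945, 2946 to 2970 and 2971 to 2995. The bin from 2571 was at 0.267 of WT at A and C and 0.294 at G and T. The bin from 2921 was at 0.211 and 0.236. In 9 bins both means were above WT, by most in 3046 to 3070, at 1.93 and 1.79 of WT.

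Helix 69 had the lowest KO share of the 7 stretches printed above. Its 9 A and C positions averaged 1.58% and 1.68% in WT, against 0.295% and 0.312% in KO, which is 0.186 of WT. Its G and T averaged 0.288% ± 0.00255 in WT and 0.0690% ± 0.00509 in KO, or 0.239 of WT. Single bases of the hairpin ranged from 0.151 of WT at C2578 to 0.375 at C2572.

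The C bases of the loop of helix 69, C2577, C2578 and C2579, all fell. C2577 had 3.92% and 4.07% in WT, against 0.682% and 0.793% in KO (centred log2 change -1.66, SE 0.08, limma adjusted p 0.000258; over the strand 71.5% of tested positions passed, 44.9% higher and 26.6% lower). C2578 beside it had 3.07% and 3.26%, against 0.515% and 0.441% (centred change -1.87, SE 0.09, adjusted p 0.000260). C2579 had 1.018% and 1.146%, against 0.156% and 0.224% (centred change -1.405, SE 0.16, limma adjusted p 0.00173).

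Both printed strands of the peptidyl transferase ring were low in KO as well. Other parts of the ring were not read as elements. On the first, A and C averaged 1.08% and 1.14% in WT, against 0.286% and 0.194% in KO, or 0.216 of WT, and G and T were at 0.247 of WT. C2939 of its conserved core had 2.72% and 2.87% in WT, against 0.756% and 0.673% in KO (centred change -1.20, SE 0.08, limma adjusted p 0.000427). The A positions of this core, A2935, A2937, A2938 and A2940, fell too, with centred changes from -0.62 to -1.27.

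On the second strand A and C averaged 1.86% and 1.88% in WT, against 0.637% and 0.474% in KO, or 0.298 of WT, and G and T were at 0.471 of WT. A2990 of its core had 5.45% and 5.48% in WT, against 1.79% and 0.934% in KO (centred change -1.36, SE 0.29, limma adjusted p 0.0129). The KO libraries were far apart there, but both lay well below WT. KO replicate 2 lists exactly 0 at C2928, G2932 and G2933 of the first strand and at T2987 and G2992 of the second; without counts a 0 from low coverage cannot be told from a low level. KO replicate 1 lists no 0 in either strand, and its G and T means were 0.0667% and 0.138%, against WT means of 0.216% and 0.253%. At the 3′ end of this stretch A2997 did not pass (0.811% and 0.807%, against 0.345% and 0.799%; adjusted p 0.799).

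The sarcin-ricin loop was at a higher share of WT. Its A and C averaged 2.55% and 2.85% in WT, against 1.45% and 1.42% in KO, or 0.532 of WT, and its G and T were at 0.520. C3133, its most reactive base, averaged 12.4% ± 0.819 in WT and 6.96% ± 0.348 in KO. It passed uncentred (-0.82, limma adjusted p 0.000243) and not centred (-0.19, adjusted p 0.0547). A3127 had 3.08% and 3.70% in WT, against 1.38% and 1.16% in KO, and passed on both scales (-0.72 centred, adjusted p 0.00616).

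The P loop and the A loop stayed close to WT. C2818 of the P loop had 7.67% and 7.65% in WT, against 7.05% and 6.66% in KO, a change of 0.47 centred (limma adjusted p 0.000648) and -0.16 uncentred (adjusted p 0.0135). The A and C of this hairpin were at 0.923 of WT, and its G and T at 0.919, where the libraries overlapped. C2821 of its stem stood at 1.57% ± 0.131 in WT and 1.56% ± 0.122 in KO.

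In the A loop hairpin A and C averaged 1.28% and 1.26% in WT, against 1.29% and 1.34% in KO. Its members went different ways: C3043 of the loop had 3.06% and 3.25% in WT, against 2.70% and 2.54% in KO, while C3046 at the end of the stem had 0.668% and 0.550%, against 1.18% and 0.990%. C3046 rose on both scales (1.37 centred, limma adjusted p 0.00120; 0.74 uncentred, adjusted p 0.00576), and C3043 passed in opposite directions (0.37 centred, adjusted p 0.00258; -0.26 uncentred, adjusted p 0.00524).

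**Figure D4:**
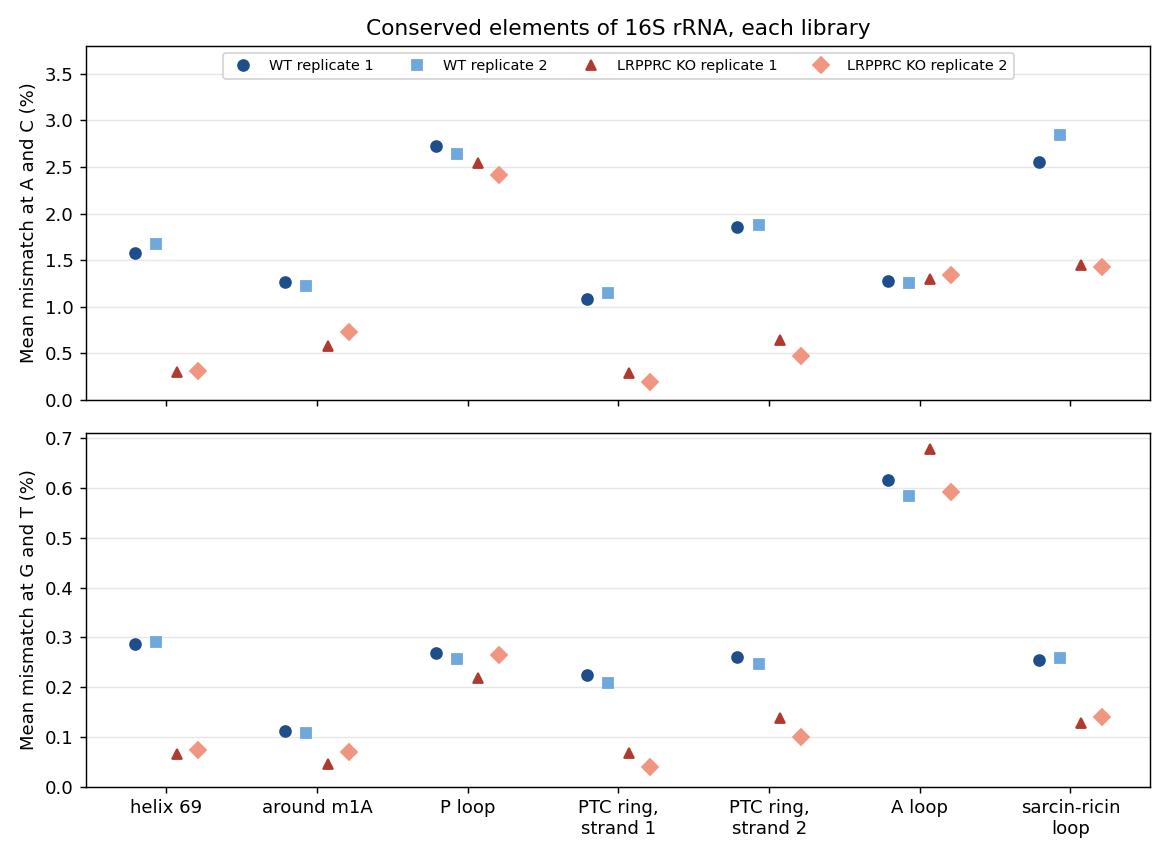
Mean mismatch (percent) of the 7 stretches printed above, at A and C (top) and at G and T (bottom), 1 point per library; PTC is the peptidyl transferase centre. Both KO libraries lie below both WT libraries, in both panels, in helix 69, around the m1A, in both ring strands and in the sarcin-ricin loop, while the A loop averages 1.27% in WT and 1.32% in KO at A and C.

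At 6 positions the mean was above 30%; native modifications and differences from the reference sequence also give mismatches, and their part was not tested. A2706 (16S number 1036), at the approximate start of domain V, was the highest, with 77.1% and 86.0% in WT, against 72.6% and 86.3% in KO. T3196 (1526) of domain VI, a base that DMS does not mark at its pairing face, had 48.9% and 54.2%, against 45.8% and 50.2%. A3189 (1519) averaged 31.8% ± 2.45 in WT and 31.4% ± 0.881 in KO. The groups overlapped at all 3 of these.

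C1944 (274) and C2061 (391) of the 5′ part separated the groups in opposite directions. C1944 had 41.4% and 44.1% in WT, against 34.9% and 28.5% in KO. C2061 had 32.1% and 30.7%, against 35.4% and 39.9%. The limit of 30% fell between A3189, with a mean of 31.6% over the 4 libraries, and C2710, with 29.8%.

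The remaining one, A2617, is the site known to carry the m1A (16S number 947). It had 62.4% and 66.1% in WT, against 29.3% and 37.8% in KO, so the groups did not overlap, and the KO mean of 33.5% ± 6.00 was 0.522 of the WT mean of 64.3% ± 2.66. The bases around it stood at nearly the same share: the other A and C of the printed stretch averaged 1.24% ± 0.0293 in WT and 0.651% ± 0.111 in KO, or 0.523 of WT, and its G and T were at 0.529. C2603 of this stretch had 6.23% and 6.06%, against 2.83% and 3.58%. Whether the share of methylated rRNA differed was not tested.

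**Figure D5:**
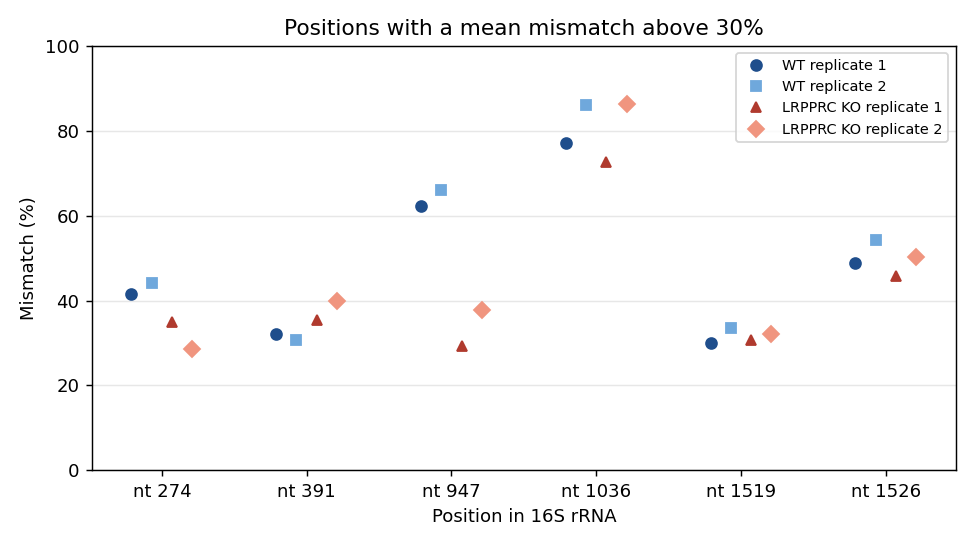
Mismatch (percent) at the 6 positions with a mean above 30%, named by their number in the 16S rRNA, 1 point per library. At 947, the m1A site, the KO libraries (29.3% and 37.8%) lie below the WT libraries (62.4% and 66.1%), and at 1036, 1519 and 1526 the groups overlap.

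The other known modified residues gave mismatches below 1%. The 2′-O-methylated G2815 of the P loop (16S number 1145) stood at 0.266% ± 0.0431 in WT and 0.214% ± 0.0106 in KO. In the A loop, the 2′-O-methylated U at T3039 (1369) stood at 0.679% ± 0.00636 and 0.540% ± 0.0622, and the 2′-O-methylated G3040 (1370) at 0.401% ± 0.0445 and 0.481% ± 0.0537. The pseudouridine at T3067 (1397) had 0.262% and 0.245% in WT, against 0.408% and 0.487% in KO; it lies in the window of domain V that rose most.

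At single positions limma called 448 of the 774 (57.9%) after centring, where 71.5% of the 9910 tested positions of the strand were called. Judged by the spread of each position alone, 202 of the 774 passed, and 4930 of the 9910 on the strand. Of the 448 called by limma, 343 were higher (44.3%, against 44.9% of the strand) and 105 lower (13.6%, against 26.6%). Uncentred, 53 were higher and 448 lower, 64.7% in all, where 83% of the strand passed, 4.73% higher and 78.3% lower. After centring, 636 positions (82.2%) had KO values entirely on 1 side of the WT values, against 87.2% of the strand. The count of lower positions moved with single libraries: it was 65 without WT replicate 1, 54 without WT replicate 2 and 180 without KO replicate 1.

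The spread between libraries was wider in MT-RNR2 than over the strand, above all in KO. The replicates differed by a median of 0.08 (log2) in WT and 0.20 in KO, against 0.04 and 0.06 over the strand. MT-RNR1 shared this, with medians of 0.09 in WT and 0.22 in KO. At 93 positions (12%) the change passed and was at least 1 log2 unit, 55 higher and 38 lower, where this held for 7.53% of the strand. In MT-RNR1 it held for 18.8% of the 484 tested positions, 68 higher and 23 lower. The share of such positions in MT-RNR2 was not tested against the strand or MT-RNR1.

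On the centred log2 scale, the 5 positions that fell most were C2639, C2578, A2956, A2926 and C2961. C2639 (16S number 969) had 0.905% and 0.994% in WT, against 0.107% and 0.0660% in KO (centred change -1.87, SE 0.16, limma adjusted p 0.000745). A2956 had 18.1% and 18.0%, among the 10 highest tested positions of the WT rRNA, against 4.30% and 2.30% (centred change -1.85, SE 0.29, adjusted p 0.00482). A2926 and C2961 changed by -1.82 and -1.80. With A2956 they lie in bins of domain V where both the A and C mean and the G and T mean were low. The order depends on the pseudocount: at 0.01 C2639 changed by -0.38, A2926 by -0.32, C2578 by -1.03, C2961 by -1.28 and A2956 by -1.73, and at 0.0001 C2639 and A2926 changed by -2.69 and -2.72. C2961 did not pass without WT replicate 1 or 2 (adjusted p 0.0783 and 0.0805).

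The 5 that rose most on the same scale were C3060, C1682, A3053, C3004 and A2142. C3060 had 6.17% and 4.68% in WT, against 10.1% and 14.5% in KO (centred change 1.79, SE 0.21, limma adjusted p 0.00205; 1.16 uncentred). A3053, in the same window, had 12.9% and 10.8%, against 19.1% and 27.7% (centred change 1.59, SE 0.21, adjusted p 0.00272). A2142 of the 5′ part had 17.7% and 16.7%, against 26.6% and 38.2% (centred change 1.51, SE 0.22, adjusted p 0.00346; 0.88 uncentred). C1682 and C3004 were low in both groups, at 0.307% ± 0.0573 and 0.453% ± 0.0170 in WT and 0.704% ± 0.160 and 0.945% ± 0.251 in KO.

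The most reactive tested bases of the WT rRNA did not share a direction. C2710 had 24.4% and 26.5% in WT, against 30.7% and 37.7% in KO, C2125 24.5% and 22.3%, against 25.7% and 32.7%, and C2215 21.4% and 21.2%, against 22.4% and 22.3%. In all 3 both KO libraries lay above both WT libraries, and each passed centred (limma adjusted p 0.0110, 0.0114 and 0.00476) but not uncentred (changes of 0.42, 0.31 and 0.07, adjusted p 0.130, 0.198 and 0.582). The centred calls were lost without WT replicate 1 (adjusted p 0.133, 0.0800 and 0.0621) and without WT replicate 2 (0.0913, 0.112 and 0.0632). C2437 had 24.7% and 26.0%, against 17.1% and 8.04%, and C2344 21.7% and 23.2%, against 14.4% and 10.4%. These passed uncentred (-1.10 and -0.87, adjusted p 0.0412 and 0.00777) but not centred (adjusted p 0.301 and 0.276).

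Of the 5 A among the highest 10 tested positions, A2142 and A2956 are given above. The others were lower in both KO libraries: A2044 averaged 18.6% ± 0.532 in WT and 13.8% ± 1.17 in KO, A1926 18.0% ± 0.472 and 10.9% ± 2.63, and A2338 17.2% ± 0.110 and 10.7% ± 1.45. These 3 passed uncentred (limma adjusted p 0.00938, 0.0136 and 0.00287) but not centred, where A2044 had the opposite sign (0.21, adjusted p 0.101).

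The signal was last set beside the unpaired probability that RNAplfold computed from the sequence of the rRNA alone. Across the 774 positions, which share reads and are not replicates, Spearman's rho was 0.270 and 0.276 in WT, against 0.287 and 0.268 in KO. In WT it was 0.368 ± 0.000756 at the 313 C and 0.233 ± 0.00378 at the 461 A. The 405 positions with a probability over 0.8 averaged 2.71% ± 0.0272 in WT and 2.18% ± 0.0582 in KO, and the 57 under 0.2 averaged 1.57% ± 0.0197 and 1.03% ± 0.131. The difference between the groups was -0.523 percentage points in the former set and -0.538 in the latter. As the WT level was lower in the latter set, the fall there was larger in relative terms.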

How the data were processed

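The authors deposited, for each position and library, the fraction of reads with a mismatch, and a fraction that also counts deletions, which served as an alternative here. Per the submitters' processing notes cutadapt and Bowtie2 were used; versions, filters, coverage minimum and genome build are not given in the sources used here. Without counts no counting interval could be given. A and C positions listed at exactly 0, which may be uncovered, numbered 0 and 0 in the WT libraries, 1 and 5 in the KO libraries. Light-strand files were not used. Gene borders came from a RefSeq table (GRCh38.p14), lowered by 1 beyond the placeholder base of the reference; 12 of 12 heavy-strand coding genes then had an open frame, and 0 without this.

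A and C positions with a mean fraction of 0.002 to 0.3 were tested. Fractions were used as log2(fraction + 0.001), which understates changes at low positions, centred on each library's median. Positions, 50-nt windows (8 or more tested positions) and genes (10 or more) were fitted over the whole strand with limma 3.58.1 in R 4.3.3 (two-sided; Benjamini-Hochberg; threshold 0.05); the code was tested on simulated data. Single values were compared by exact permutation over libraries. RNAplfold was that of ViennaRNA 2.7.2. Figures used matplotlib 3.10.9.

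Named positions were those above 0.3, the 10 highest in WT, the 5 that rose and the 5 that fell most among called positions without overlap, and bases of the elements found by motif: TAACCGT (helix 69), GGGGCGA (P loop), GATAACA and GTTGGAT (ring), TGTTCAA (A loop) and GTACGA (sarcin-ricin loop), each found 1 time in the rRNA, and AAGACCC, found 2 times, the later of which placed domain V. Named windows were the 3 that rose and the 3 that fell most. Members and lists were chosen with earlier results of these data known. The labels say no more of replicates than "bioreplicate", so p-values measure the spread between these libraries, which limma pools in part over positions, windows or genes, and wholly for windows divided by the background.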

Additional observations from a re-analysis of the deposited data

How the results depend on the processing

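The centred change of the whole gene (0.16) was -0.47 without centring, -0.0182 with quantile normalization and -0.0115 at A positions alone; it no longer passed at 0.11 with a pseudocount of 0.0001, 0.16 without the lower limit and 0.15 with an upper limit of 0.1, and ran from 0.145 to 0.171 with a library left out. With the replicate block it was 0.16 (adjusted p 0.139) and 3 windows were called lower. Deviations of same-numbered libraries had a correlation of 0.000704 over the strand and -0.175 in MT-RNR2, so the numbers were not taken as pairs. The Gini change ran from 0.0487 to 0.0669 with a library left out, and the gap to the mRNAs turned to -0.10 at A positions alone. Of 774 tested positions 448 were called, against 219 of the 461 A alone and 219 of the 313 C alone, each fitted apart. At a lower limit of 0.01, which leaves fewer positions to test, 286 were called. Higher positions numbered 53 uncentred, 228 at the limit of 0.01, 129 at A and 189 at C; lower ones 448 uncentred, 169 with quantile normalization, 58 at the limit of 0.01, 30 at C, and 54 to 180 with a library left out. Uncentred, 1 window was higher and 22 lower. Lower windows numbered 13 with quantile normalization, 8 and 3 with pseudocounts of 0.0001 and 0.01, 3 without the lower limit, and 3 to 9 with a library left out. Divided by the background, an alternative chosen after seeing the data, 10 to 16 windows were called and 7 to 14 lower with a library left out. With the spread of each feature alone, also added after seeing the data, 202 positions, 17 windows and 5 divided windows were called. On the whole strand this held for 4930 of 9910 positions, 243 of 330 windows and 219 of 329 divided windows. A2044 was -0.42 uncentred and -0.00228 with quantile normalization. With a library left out A1926 ran from -0.34 to 0.15, A2338 from -0.19 to 0.0828 and C2437 from -1.01 to 0.0662. Causes were not tested, and unknown depth limits low positions most.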

Other observations

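Deletions, which the comparisons above leave out, were rare in MT-RNR2 and more frequent at A and C than at G and T. In WT their mean was 0.0897% ± 0.00335 for A (SD, n = 2) and 0.0788% ± 0.00103 for C, against 0.0208% ± 0.000757 for G and 0.0312% ± 0.000290 for T. In KO it was 0.0536% ± 0.00212 for A and 0.0809% ± 0.00601 for C, against 0.0164% ± 0.00101 for G and 0.0218% ± 0.000216 for T. Of the 5 positions with the most deletions, 3 lie just after A2706: A2707, C2708 and C2710, at 2.80%, 5.80% and 4.61% on average in WT, against 4.05%, 9.48% and 7.47% in KO. The others were A1702, with 3.92% against 1.15%, and A2412, with 2.60% against 2.10%. They were chosen after their values were seen and were not tested.

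Among G and T, the 4 positions whose mean mismatch differed most upward in KO, in percentage points, were T2158 (1.63% ± 0.0516 in WT, 2.89% ± 0.00778 in KO), T2908, T2021 (0.258% ± 0.0728 and 1.10% ± 0.243) and G3061 (0.416% ± 0.0728 and 1.03% ± 0.112). G3061 is next to C3060, the A or C position with the largest rise on the centred log2 scale. These too were chosen after their values were seen and were not tested.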
